A study of Mus musculus with 28 samples.

Results

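The 38 genes described here encode proteins of the cell cycle and of DNA replication, and they were followed in microglia sorted from single mouse retinas before and after endotoxin-induced uveitis (EIU), an acute inflammation of the eye. They were picked by symbol from a table of 40021 genes, with no threshold on a measured value, and the table held all 38. The study asked how the microglial transcriptome changes during EIU, and for these genes the question was whether transcripts of dividing cells appear at any time point. Each sample was the microglia of 1 retina, giving 28 retinas, of which 10 were naive, and after an intravitreal injection of lipopolysaccharide (LPS) there were 6 taken at 4 h, 5 at 18 h and 7 at 2 weeks. All retinas, naive ones included, came from male heterozygote Cx3cr1CreER:R26-tdTomato (C57BL/6) mice, whose ages the labels do not give. In this strain tamoxifen, here given as eye drops before EIU, switches on tdTomato in cells that use the Cx3cr1 promoter, so long-lived microglia keep the label while most blood-derived cells lose it. Live cells were sorted as tdTomatohi DRAQ7-, and naive eyes had no injection, so the effect of LPS and that of the injection itself cannot be told apart. The labels do not say which retinas shared a mouse, and a p-value here therefore measures the spread between retinas.

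Cells that prepare to divide pass a fixed sequence of transcript waves. Cyclin E with its kinase partner and the E2F factors open S phase, the MCM helicase and the primase with PCNA then copy the DNA from nucleotides that ribonucleotide reductase and thymidylate synthase supply, and cyclin B with CDK1, the Aurora and Polo kinases and the spindle motors carry the cell through mitosis. Microglia divide slowly in the healthy retina and are known to proliferate after injury.

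Values were RPKM (reads scaled to transcript length and library depth), a level that is comparable between genes of different length. Retinas had between 7510000 and 19700000 alignments, at which 1 RPKM stands for about 24.4 to 64.0 reads on a transcript of the genes' median length. Between 6552 and 11825 genes reached 1 RPKM per retina, and 4 retinas stood apart with under 7500: naive replicate 4 (6552), replicate 1 at 2 weeks (6644), replicate 4 at 18 h (6969) and naive replicate 3 (7088). All 4 were from the first experiment. Naive retinas had a median of 8349.5 genes at 1 RPKM or more in the first experiment and 11319.5 in the second. Differences between the experiments therefore went partly together with the number of genes detected. The 10 microglial markers examined summed to between 2180 and 13400 RPKM. Transcripts of rods, the photoreceptors around these cells, were present in every group (5 markers summed to between 211 and 4730 RPKM). The level in a bulk sample does not separate fewer expressing cells from less RNA per cell.

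Most of the 38 genes were near the detection limit. One gene, Pcna, reached 1 RPKM in all 28 retinas, 13 genes did so in at least 14 retinas, and 13 genes were listed at 0 in at least 10 retinas. A retina had between 8 and 33 of the 38 genes at 1 RPKM or more. The naive retinas had 8 to 29 (median 15.5), the 4 h retinas 8 to 21 (median 14), the 18 h retinas 17, 33, 26, 11 and 15 in replicates 1 to 5, and the 2-week retinas 9 to 17 (median 13). The 4 ranges overlapped. Replicate 2 at 18 h stood apart: it had the highest value of any retina for 15 of the 38 genes, and its summed level over the 38 genes was 295 RPKM, against 118 to 155 RPKM in the other 4 retinas at 18 h and 64.7 to 175 RPKM in naive retinas. A naive retina, replicate 10, had 29 of the genes, so a broad presence of these transcripts was seen without LPS too.

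**Figure D1:**
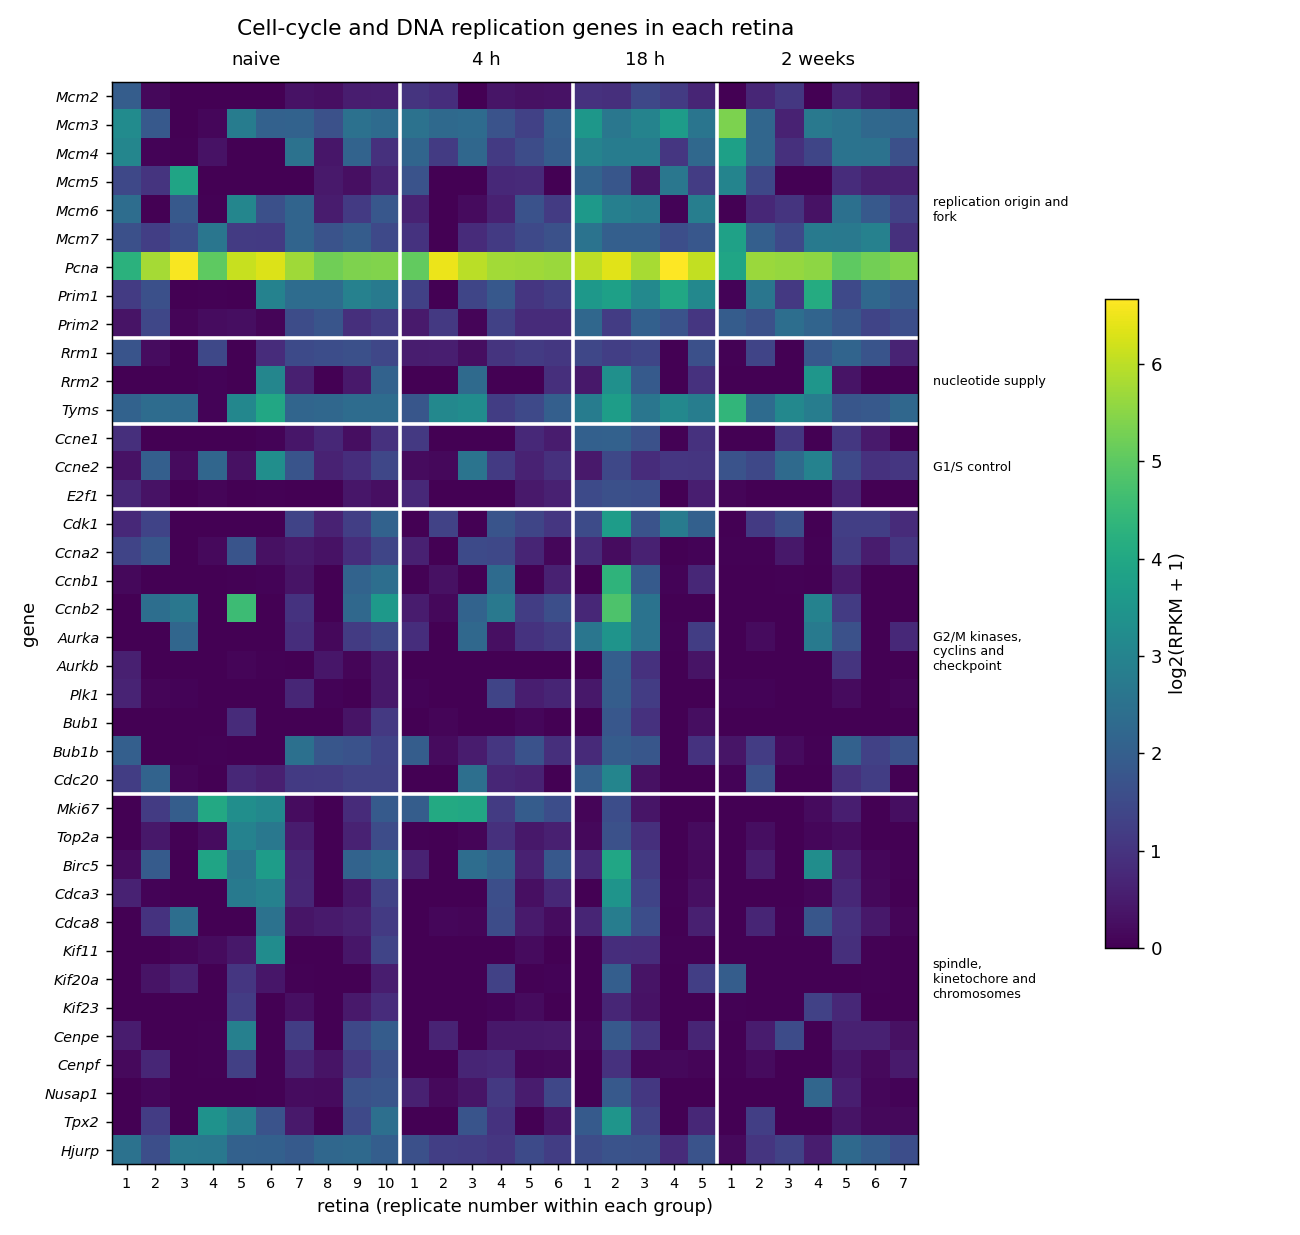
The heat map plots log2(RPKM + 1) of the 38 genes (rows, ordered by role) in each of the 28 retinas (columns, by group and replicate number). Pcna is the bright row in all retinas, and replicate 2 at 18 h is the column in which 33 of the 38 genes reach 1 RPKM.

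The roles differed in where they were detected. Of the 9 replication genes (Mcm2 to Mcm7, Pcna, Prim1 and Prim2), 8 (not always the same 8) reached 1 RPKM in each of the 5 retinas at 18 h, against 2 to 8 in naive retinas, 4 to 6 at 4 h and 5 to 7 at 2 weeks. Some values at 18 h were just over 1 RPKM, such as Mcm4 (1.08) in replicate 4 and Prim2 (1.09) in replicate 5. The RPKM of all genes summed to 441474 to 509597 at 18 h and 298434 to 404838 in naive retinas, and the counts were not adjusted for this. The lowest naive counts, 4, 2 and 4, were in replicates 3, 4 and 5, with 7088, 6552 and 8137 genes at 1 RPKM or more. The 10 G2/M kinases, cyclins and checkpoint genes had no such uniform pattern: 3, 9, 6, 1 and 2 of them reached 1 RPKM in replicates 1 to 5 at 18 h, against 0 to 8 in naive retinas. For the 13 spindle, kinetochore and chromosome genes these counts were 2, 10, 7, 0 and 2 at 18 h and 1 to 11 in naive retinas. Of the 23 genes in these last roles, 13 had their highest value in replicate 2 at 18 h.

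**Figure D2:**
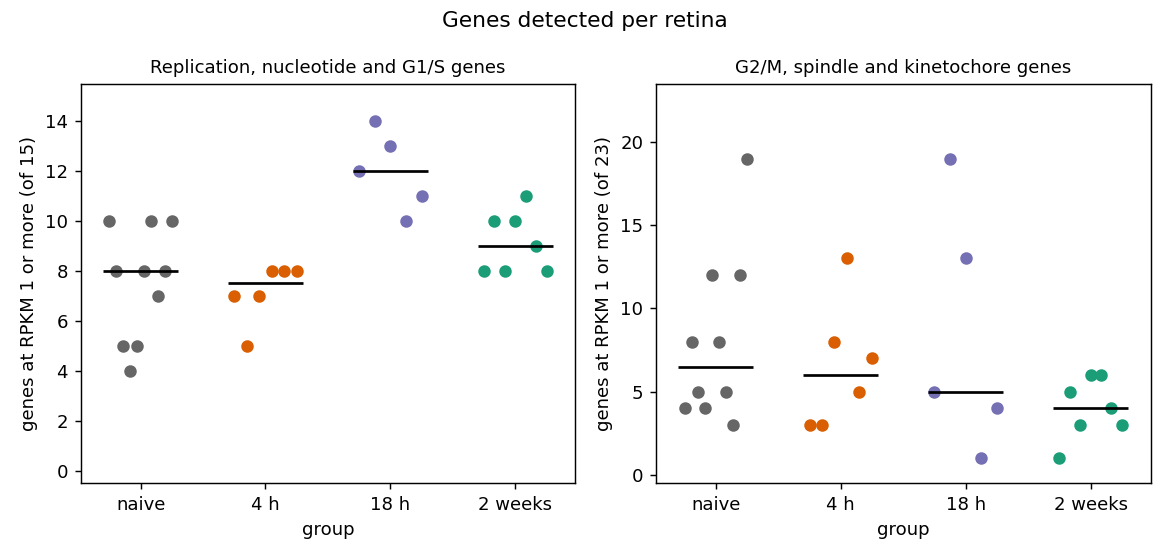
Points are retinas and bars are group medians, and the vertical axis counts the genes at 1 RPKM or more (left, replication, nucleotide and G1/S genes; right, G2/M, spindle and kinetochore genes). On the right, replicates 2 and 3 at 18 h lie far above the other retinas at 18 h, and naive retinas spread as widely.

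At 18 h, the time that the labels call the peak of the cellular infiltrate, Prim1, Cdk1 and Ccne1 were higher than in naive retinas, and none of the genes tested was called lower. The test was limma on log2(RPKM + 1) over 13164 genes with 1 RPKM or more in at least 5 retinas, and calls needed both a Benjamini-Hochberg adjusted p no higher than 0.05 and a 2-fold difference or more. Of the 38 genes 29 passed this filter, and 3 of these were called; over all genes tested 4.69% were called, 2.84% as higher. At an unadjusted p under 0.05 there were 7 higher and 2 lower, where 8.55% and 8.93% of all genes were higher and lower. A linear model of untransformed RPKM also called 3, and 5.31% of all genes. Ccne1, Rrm2, Ccnb1, Cdca3 and Kif20a passed the filter only with the 18 h retinas, which favours a call at 18 h; with no filter, all 38 genes were tested and only Cdk1 was called, where 1.31% of all genes were. Without the 4 retinas with under 7500 genes, an alternative chosen after the data were seen, 2 of the 28 genes then tested were called, Ccne1 (log2 fold change 1.27, adjusted p = 0.0078) and Aurka. The share of all genes called in that alternative is not given here, so this count has no background to be set against.

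Prim1 encodes the catalytic subunit of primase, which lays the RNA primers for DNA synthesis (GRCm38, chromosome 10, 128015168 to 128030037, plus strand). Its level was 10.8, 12.8, 7.86, 14.6 and 7.69 RPKM in replicates 1 to 5 at 18 h, between 0 and 6.72 RPKM (median 3.12) in naive retinas and between 0 and 2.58 RPKM (median 1.40) at 4 h. Naive replicates 3, 4 and 5, with 7088, 6552 and 8137 genes at 1 RPKM or more, had 0, 0.029 and 0 RPKM of Prim1. All 5 retinas at 18 h lay above all naive and all 4 h retinas, as they did for 2.05% and 4.84% of all genes tested, but the highest Prim1 of any retina was 16.3 RPKM in replicate 4 at 2 weeks, where the other six were between 0.0522 and 5.19 RPKM. The log2 fold change was 1.90 ± 0.55 (SE, n = 5 and 10, limma adjusted p = 0.039) against naive and 2.38 ± 0.61 (n = 5 and 6, adjusted p = 0.015) against 4 h. The call against naive was lost with any 1 of the 5 retinas at 18 h left out (adjusted p from 0.06 to 0.11) and without naive replicate 1, 3, 4 or 5 (0.056 to 0.064). With 1 retina at 18 h left out, the log2 fold change was between 1.79 and 2.00. Without the 4 retinas with under 7500 genes it was 1.39 (adjusted p = 0.1) against naive, no longer called, and 2.27 (adjusted p = 0.0066) against 4 h. Naive levels differed by experiment, with a median of 0.627 RPKM in the 6 retinas of the first and 4.95 RPKM in the 4 of the second. Naive retinas of the first experiment also had fewer genes at 1 RPKM or more (median 8349.5 against 11319.5). The log2 fold change was 2.65 (limma adjusted p = 0.066) in the first experiment and 0.52 in the second, which has 1 retina at 18 h.

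Cdk1 encodes the kinase that drives entry into mitosis (chromosome 10, 69335146 to 69352938, minus strand). Its level at 18 h was 1.89, 12, 2.28, 5.85 and 3.12 RPKM in replicates 1 to 5, and naive retinas had between 0 and 3.27 RPKM (median 0.628), with 4 of 10, replicates 3 to 6, listed at 0. The groups overlapped, since 1 naive retina, replicate 10, exceeded 3 of the 5 retinas at 18 h. The log2 fold change was 1.61 ± 0.41 (SE, n = 5 and 10, limma adjusted p = 0.014). Without replicate 2 it was 1.27 (adjusted p = 0.095), without the 4 retinas with under 7500 genes it was 1.32 (adjusted p = 0.064), and in both cases the call was lost. Within the first experiment the call held; in the second the fold change was 0.71 (adjusted p = 0.51).

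Ccne1, cyclin E1, binds CDK2 at the entry to S phase (chromosome 7, 38097984 to 38107534, minus strand). Its level was 3.15, 3.20, 2.17, 0.0331 and 0.931 RPKM in replicates 1 to 5 at 18 h, and no naive retina exceeded 0.948 RPKM. Replicates 1 to 3 lay above all naive retinas, and the other two did not. The log2 fold change was 1.03 ± 0.30 (SE, n = 5 and 10, limma adjusted p = 0.04), just past the required fold. Without a filter the adjusted p was 0.098, and the call was lost without replicate 1, 2 or 3 at 18 h (adjusted p from 0.12 to 0.18) or naive replicate 2, 3, 4, 5, 6 or 9 (0.054 to 0.062). E2f1, a transcription factor of S-phase genes that did not pass the filter, had 1.84, 2.08, 1.97, 0 and 0.477 RPKM in the same 5 retinas and at most 0.634 RPKM in naive retinas, and was thus high in the same 3 retinas as Ccne1. Ccne2, cyclin E2, had a log2 fold change of -0.33 ± 0.45 (SE, adjusted p = 0.77).

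The other replication genes had positive but uncalled differences at 18 h. All 8 replication genes tested, Prim1 included, had a log2 fold change above 0 (median 0.91), where 45.1% of all genes tested had one (median -0.08). Mcm4, a subunit of the replicative helicase, had 6.94, 5.93, 5.93, 1.08 and 3.75 RPKM at 18 h and a median of 0.285 RPKM in naive retinas (log2 fold change 1.43 ± 0.51, SE, adjusted p = 0.11). Mcm3 of the same helicase was between 5.02 and 11.9 RPKM at 18 h and between 9.1e-07 and 8.33 RPKM in naive retinas (1.23 ± 0.53, adjusted p = 0.21). Mcm6 was at 11, 6.31, 5.61, 0.0377 and 6.26 RPKM in replicates 1 to 5, so that replicate 4 alone was low, and it was called in no comparison of the test used here. Prim2, the regulatory primase subunit, was between 1.09 and 3.70 RPKM (0.87 ± 0.32, adjusted p = 0.12). Pcna, the sliding clamp of the DNA polymerases, was the most abundant of the 38 genes, at 63.3, 82.4, 54.3, 101 and 66.0 RPKM at 18 h against 18.2 to 96.1 RPKM (median 46.5) in naive retinas (0.60 ± 0.34, adjusted p = 0.38). Its naive median was above that of 92% of the genes tested, while Cdk1 was listed at 0 in 4 of the 10 naive retinas. Mcm7 shares 64 exonic bases with Cops6 on the opposite strand (median 63.2 RPKM), and because the library preparation keeps no strand, reads from that stretch cannot be assigned.

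Of the nucleotide-supply genes none was called at 18 h. Tyms, thymidylate synthase, was between 5.09 and 12.1 RPKM at 18 h and between 0.0369 and 15.0 RPKM in naive retinas (0.71 ± 0.48, adjusted p = 0.48). Rrm2, the ribonucleotide reductase subunit that rises in S phase, was found in few retinas: 9.15 RPKM in replicate 2 and 2.69 RPKM in replicate 3 at 18 h, and 7.34 RPKM in naive replicate 6, with 15 of 28 retinas listed at 0. Rrm1, the large subunit, was at most 3.47 RPKM in any retina.

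**Figure D3:**
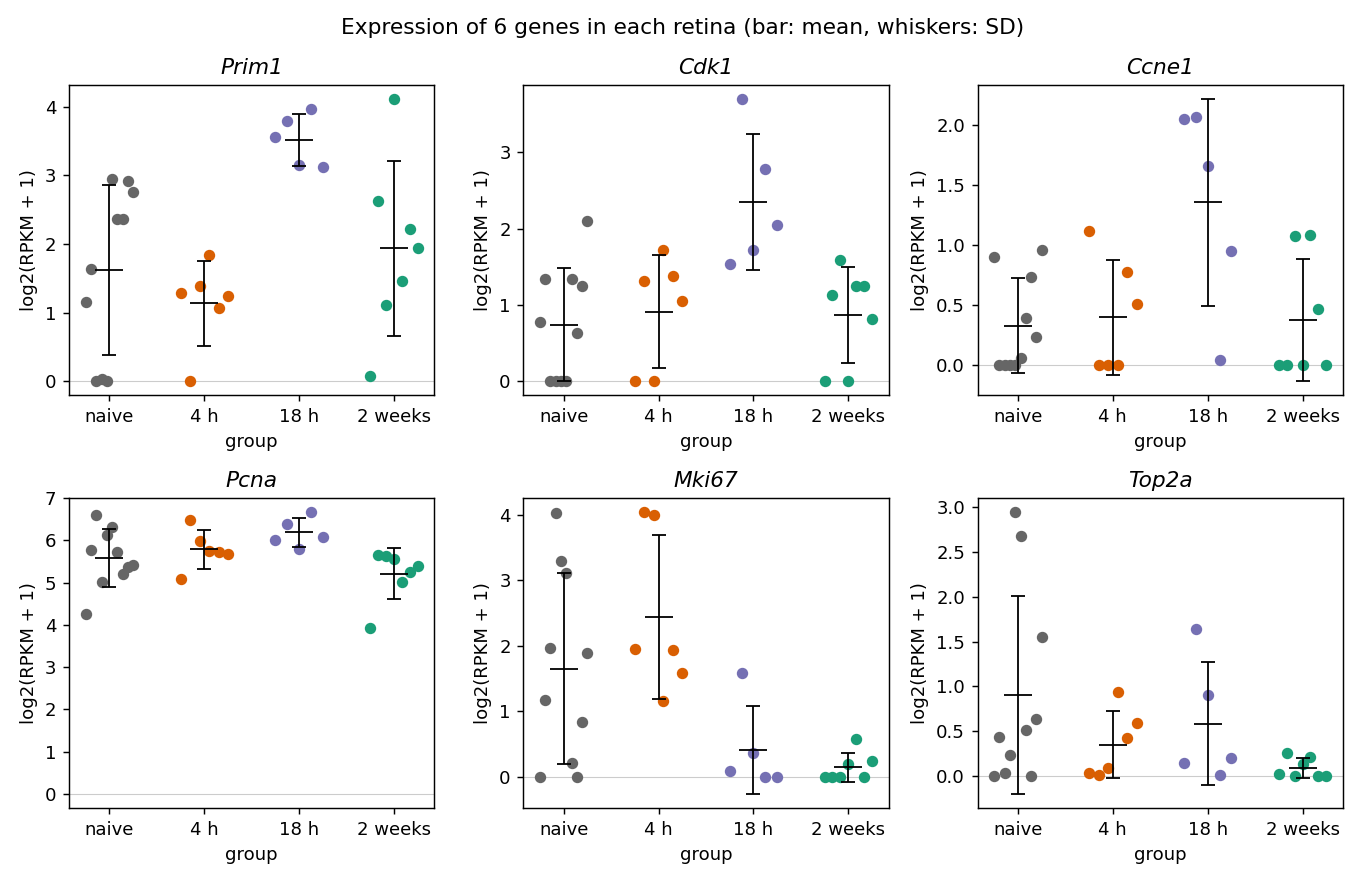
Points are retinas on log2(RPKM + 1), the bar is the group mean and the whiskers are 1 SD. The 5 retinas at 18 h lie above all naive and 4 h retinas for Prim1, while for Cdk1 and Ccne1 they overlap with naive ones and Mki67 is low in them.

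Among the 5 retinas at 18 h, replicate 2 alone was highest for 21 of the 23 G2/M, spindle, kinetochore and chromosome genes. After rounding, Hjurp was equal in replicates 2 and 5 (2.24 RPKM), and Ccna2, cyclin A2, was highest in replicate 1 (0.738 RPKM). Ccnb2, a mitotic cyclin, was at 0.678, 27.1, 4.79, 0 and 0 RPKM in replicates 1 to 5, and naive retinas ran from 0 to 22.9 RPKM (log2 fold change -0.03 ± 0.76, SE, adjusted p = 0.99). Ccnb1, the partner of CDK1, was at 0, 19.4, 2.71, 0.0418 and 0.672 RPKM, and no other retina of any group exceeded 4.33 RPKM. In the same replicate 2, Birc5 (survivin, of the chromosomal passenger complex) was at 14.5 RPKM, Tpx2 (a spindle assembly factor) at 10.1 RPKM, Cdca3 (a trigger of mitotic entry) at 10.0 RPKM and Aurka (the Aurora A kinase) at 9.99 RPKM. Aurka was also at 5.16 and 4.86 RPKM in replicates 1 and 3 and had the largest uncalled difference among the G2/M genes (1.40 ± 0.50, adjusted p = 0.11). In replicates 4 and 5 most of the mitotic genes were at 0 or below 1 RPKM, although Cdk1 was at 5.85 and 3.12 RPKM there. Without replicate 2, 27 of the 38 genes passed the filter, against 29 with it. Their median log2 fold change was 0.08, against 0.33 with replicate 2, and none was called. Without replicates 2 and 3, an alternative chosen after the data were seen, 24 genes passed, with a median of -0.15 and none called. The medians of all genes in these 2 settings were -0.08 and -0.14. Fewer retinas and genes were compared and the share of all genes called is not given, so the loss of calls need not be particular to these genes. Reads of Ccnb2 and of its processed copy Ccnb2-ps may be divided between them (the copy had 1.37 RPKM or less at 18 h and up to 12.8 RPKM in a 2-week retina), and the Ccna2 transcript shares 510 exonic bases with Exosc9 on the opposite strand (median 22.4 RPKM), so low values of Ccna2 are uncertain.

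Marker transcripts of some other cell types differed at 18 h, in both directions. The 4 markers of Muller glia, a retinal cell type, summed to a median of 45.4 RPKM at 18 h and 129.5 RPKM in naive retinas. The 6 neutrophil markers were listed at 0 in every naive retina and summed to 0.994, 9.62, 15.7, 0 and 0.827 RPKM in replicates 1 to 5 at 18 h, where 3 of the 6 reached 1 RPKM in any retina and Ly6g stayed at or below 0.189 RPKM. The 6 lymphocyte markers summed to 6.88, 36.4, 12.5, 86.4 and 12.1 RPKM at 18 h and to at most 0.0806 RPKM in naive retinas. Nearly all of this was Nkg7, a cytotoxic granule protein, since Cd3e was at most 0.297 RPKM, and Cd79a was at 0 in all 5. The 6 monocyte markers summed to between 0.0321 and 32.9 RPKM at 18 h and to between 0.12 and 28.5 RPKM in naive retinas. Of these 6, 5 reached 1 RPKM in any retina at 18 h, against 2 in each of the other groups. The microglial markers summed to between 3930 and 6240 RPKM at 18 h, below the 6690 to 13400 RPKM of naive retinas. The neutrophil sum was highest in replicates 3 and 2, which also had the most G2/M genes at 1 RPKM or more (6 and 9). The lymphocyte sum, in which 1 of the 6 markers reached 1 RPKM in any retina at 18 h, was highest in replicate 4 and next in replicate 2. Replicate 4 had 1 of the G2/M genes at 1 RPKM or more. As nearly all of that sum was Nkg7, it ranks the retinas by 1 gene and not by a lymphocyte level. The part of such other cells in the values of Prim1, Cdk1 or the mitotic genes was not tested.

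The promoters of 4 of these genes are shown because 3 of them were called at 18 h and the fourth, Ccnb2, is a mitotic cyclin. RefSeq windows (GRCm38.p6) from 250 bases before to 50 after a start site were matched for 31 of the 38 genes, using the first start site listed for each gene, and 3 motifs were searched on both strands: the cell-cycle homology region core TTTGAA, found in many mitotic promoters, the NF-Y core CCAAT, and the E2F core TTCCCGC. The first of these, the CHR core, was in 6 of 8 G2/M promoters and 8 of 11 spindle, kinetochore and chromosome promoters, in 1 of 7 replication promoters and in 18.1% of the 27025 promoters in the table. The NF-Y core was in 26 of the 31 and in 37.9% of all promoters, and the E2F core in 4 of the 31, 3 of them of replication genes, and in 4.66% of all promoters. Capitals mark these motifs on either strand, and where the E2F and NF-Y cores overlap, as in Prim1, they form 1 capital run.
Cdk1, minus strand, chr10:69352863-69353162: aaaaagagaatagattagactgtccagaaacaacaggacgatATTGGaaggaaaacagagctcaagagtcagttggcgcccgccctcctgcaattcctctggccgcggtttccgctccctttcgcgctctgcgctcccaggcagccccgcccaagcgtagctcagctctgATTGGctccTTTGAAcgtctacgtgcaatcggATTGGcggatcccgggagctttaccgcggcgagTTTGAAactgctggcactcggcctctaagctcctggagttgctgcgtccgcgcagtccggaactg
Ccnb2, minus strand, chr9:70421505-70421804: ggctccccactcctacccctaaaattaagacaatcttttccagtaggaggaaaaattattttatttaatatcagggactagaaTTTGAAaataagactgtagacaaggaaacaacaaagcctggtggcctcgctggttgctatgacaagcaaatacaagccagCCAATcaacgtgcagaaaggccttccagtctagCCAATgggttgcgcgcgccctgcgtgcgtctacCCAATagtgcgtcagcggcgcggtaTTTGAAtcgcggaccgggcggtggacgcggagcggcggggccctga
Prim1, plus strand, chr10:128014965-128015264: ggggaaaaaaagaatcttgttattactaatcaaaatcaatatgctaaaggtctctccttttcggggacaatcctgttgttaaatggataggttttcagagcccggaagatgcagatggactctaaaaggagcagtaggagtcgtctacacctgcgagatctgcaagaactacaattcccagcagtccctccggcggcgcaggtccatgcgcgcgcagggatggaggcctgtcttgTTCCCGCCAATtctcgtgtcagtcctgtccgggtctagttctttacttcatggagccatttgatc
Ccne1, minus strand, chr7:38107441-38107740: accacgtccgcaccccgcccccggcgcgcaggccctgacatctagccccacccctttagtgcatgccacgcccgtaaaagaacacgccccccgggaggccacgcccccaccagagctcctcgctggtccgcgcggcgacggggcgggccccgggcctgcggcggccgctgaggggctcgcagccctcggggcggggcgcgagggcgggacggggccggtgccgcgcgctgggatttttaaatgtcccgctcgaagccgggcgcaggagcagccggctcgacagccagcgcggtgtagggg

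The windows of Cdk1 and Ccnb2 held the CHR and NF-Y cores, that of Prim1 held the E2F and NF-Y cores, and that of Ccne1 held none of the 3. Mitotic genes were not alike in this: the window of Ccnb1 held the NF-Y core alone and that of Birc5 none of the 3. A match of letters describes the window and shows no binding.

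At 4 h, the early time point, none of the 29 genes tested among the 38 was called by limma, whereas 8.08% of all genes were. The unadjusted p was under 0.05 for 1 of them, Hjurp, which was lower, as 13% of all genes were, and the model of untransformed RPKM called 1 gene, also Hjurp, and 6.41% of all genes. Hjurp encodes the chaperone that loads the centromeric histone CENP-A. It had 2.10, 1.36, 1.27, 1.07, 1.83 and 1.33 RPKM in replicates 1 to 6 at 4 h and between 2.04 and 5.51 RPKM (median 3.45) in naive retinas, so that 1 retina at 4 h overlapped with the naive range. The log2 fold change was -0.90 ± 0.30 (SE, n = 6 and 10, adjusted p = 0.054). The difference at 18 h was -0.72 ± 0.31 (adjusted p = 0.21) and at 2 weeks -0.94 ± 0.28 (adjusted p = 1). At 4 h the tested genes had a median log2 fold change of -0.16, against -0.11 over all genes, and 10 of 29 were above 0, against 43.3% of all genes.

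Mki67, the gene of the proliferation marker Ki-67, had the largest positive difference at 4 h and the most negative at 18 h and at 2 weeks, and none was called. Naive retinas ranged from 0 to 15.3 RPKM (median 1.98), and the 6 retinas at 4 h were at 2.88, 15.5, 14.9, 1.22, 2.82 and 1.99 RPKM. At 18 h the values were 0.0688, 1.99, 0.288, 0 and 0 RPKM, and at 2 weeks none of 7 retinas exceeded 0.487 RPKM. The log2 fold changes against naive were 0.79 ± 0.53 (SE, adjusted p = 0.43) at 4 h, -1.24 ± 0.57 (adjusted p = 0.24) at 18 h and -1.51 ± 0.51 (adjusted p = 1) at 2 weeks. Between 18 h and 4 h the difference was -2.03 ± 0.63 (adjusted p = 0.051), just short of a call. The high values were from the first experiment, whose naive median was 5.29 RPKM (6 retinas) against 0.47 RPKM (4 retinas) in the second, and whose 3 retinas at 4 h were at 2.88 to 15.5 RPKM against 1.22 to 2.82 RPKM.

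High Mki67 and high Top2a did not always coincide. Of 5 retinas with Mki67 at 5 RPKM or more, 2 had Top2a (topoisomerase II alpha, which untangles sister chromatids) at 1 RPKM or more, 1 had Cdk1 and 4 had Birc5 at that level. Top2a reached 1 RPKM in 4 of 28 retinas and did not pass the filter; its highest values were 6.73 and 5.41 RPKM in naive replicates 5 and 6, and 2.13 RPKM in replicate 2 at 18 h. The 2 retinas at 4 h with the most Mki67, 15.5 and 14.9 RPKM, had 0.00962 and 0.0593 RPKM of Top2a. In replicate 2 at 18 h, by contrast, Ccnb2 was at 27.1 RPKM and Ccnb1 at 19.4 RPKM while Mki67 was at 1.99 RPKM.

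**Figure D4:**
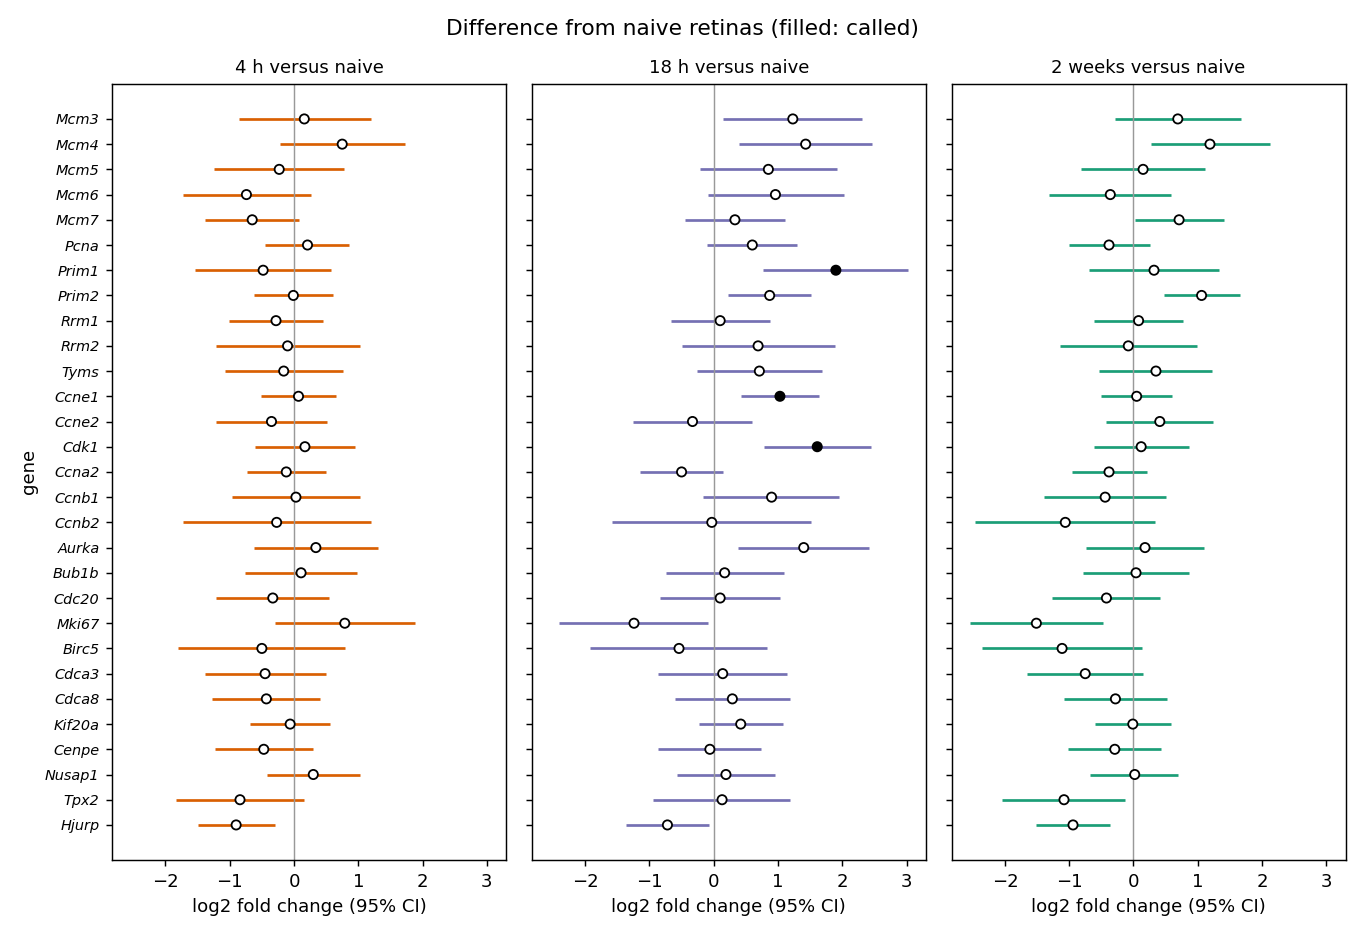
Points are log2 fold changes against naive retinas on the log2(RPKM + 1) scale for the 29 genes tested, horizontal lines are 95% confidence intervals from limma, and filled points were called. Prim1, Cdk1 and Ccne1 are filled at 18 h, no gene is filled at 4 h or 2 weeks, and the replication genes at the top lie to the right of 0 at 18 h.

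Between 18 h and 4 h, Prim1 was the 1 gene called of the 29 tested, as higher at 18 h, where 5.42% of all genes were called and 2.92% as higher. At an unadjusted p under 0.05 there were 6 higher and 1 lower, where 9.91% and 6.4% of all genes were, and the model of untransformed RPKM called 4 (Ccne1, Cdk1, Mcm6 and Prim1) and 7.02% of all genes. Mcm6 ran from 0 to 2.22 RPKM at 4 h against 0.0377 to 11 RPKM at 18 h (log2 fold change 1.70 ± 0.57, SE, adjusted p = 0.082), and Cdk1 from 0 to 2.30 RPKM at 4 h (1.44 ± 0.45, adjusted p = 0.054). For Mcm3, as for Prim1, all 5 retinas at 18 h lay above all 6 at 4 h (1.45 to 4.70 RPKM), which held for 4.84% of all genes.

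By 2 weeks, the resolution stage, none of the 29 genes was called, and over all genes tested 0.0076% were. At an unadjusted p under 0.05 there were 3 higher (Prim2, Mcm4 and Mcm7) and 3 lower (Mki67, Hjurp and Tpx2), where 2% and 0.874% of all genes were, and the model of untransformed RPKM called none of these and 0% of all genes. Prim2 was between 1.60 and 4.29 RPKM in the 7 retinas and between 0.0593 and 2.37 RPKM in naive ones (log2 fold change 1.06 ± 0.29, SE, 95% CI 0.48 to 1.65, adjusted p = 1). Mcm4 had the largest positive difference, with a median of 3.57 RPKM against 0.285 RPKM (1.19 ± 0.45, adjusted p = 1). Single retinas departed from the rest: replicate 1 had 39.7 RPKM of Mcm3, 20.0 RPKM of Tyms, 13.1 RPKM of Mcm7 and 12.9 RPKM of Mcm4 but the lowest Pcna of any retina (14.3 RPKM) and Cdk1 listed at 0, and replicate 4 had 10.3 RPKM of Rrm2, 8.64 RPKM of Birc5 and 6.77 RPKM of Ccnb2 with Cdk1 and Ccnb1 listed at 0. Cdk1 was at most 2.02 RPKM in the 7 retinas (0.12 ± 0.36, 95% CI -0.62 to 0.86, adjusted p = 1).

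A further 136 genes of the cell cycle were examined as 5 lists, of which 96 genes passed the filter. At 4 h, 6 were higher and 3 lower, at 18 h 6 were higher and 1 lower, and at 2 weeks 0 were called by limma, with 3 at an unadjusted p under 0.05 and 0 by the model of untransformed RPKM. Of all genes 3.68% and 4.39% were called higher and lower at 4 h, and 2.84% and 1.85% at 18 h. The medians of the 96 genes (-0.16, 0.30 and -0.01) lay close to those of the genes tested among the 38 (-0.16, 0.33 and -0.01). The model of untransformed RPKM called 13 at 4 h and 10 at 18 h, where 6.41% and 5.31% of all genes were called. For each of the 5 lists, the limma counts given below stand beside 8.08% of all genes called at 4 h and 4.69% at 18 h. Without the 4 retinas with under 7500 genes, limma called 17 of the further genes at 4 h and 13 at 18 h. For the fit without those retinas the share of all genes called is not given.

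Of these genes Gadd45b had the largest difference from naive at 4 h and Cdkn1a at 18 h. Of the 15 CDK inhibitors and arrest genes tested, limma called 2 higher and 1 lower at 4 h and the same 3 at 18 h, whereas the model of untransformed RPKM called 5 at 4 h and 0 at 18 h. The list as a whole had no single direction, with 9 of 15 log2 fold changes above 0 at 4 h (median 0.21) and 4 of 15 at 18 h (median -0.20). Cdkn1a, which encodes the CDK inhibitor p21, was between 71.5 and 326 RPKM (median 127) at 4 h and at 70.8, 63.2, 42.7, 45.4 and 46.9 RPKM at 18 h, against 0.0505 to 14.1 RPKM (median 8.48) in naive retinas. No retina at 4 h or 18 h overlapped with a naive one, which held for 1.65% and 2.05% of all genes in the same direction, and the log2 fold changes were 4.63 ± 0.63 (SE, n = 6 and 10, limma adjusted p = 3.2e-06) and 3.28 ± 0.67 (n = 5 and 10, adjusted p = 0.0023). Gadd45b, a stress-response gene of the growth arrest and DNA damage family that LPS is known to induce, was between 72.3 and 490 RPKM at 4 h and at most 2.54 RPKM in naive retinas, of which 6 were listed at 0 (7.32 ± 0.55, adjusted p = 1.8e-11). By 18 h it was at 16.2, 7.65, 30.7, 0 and 5.01 RPKM (2.59 ± 0.58, adjusted p = 0.0057). Ccng2, cyclin G2, which is linked to arrest rather than to division, was between 5.59 and 43.5 RPKM in naive retinas, between 1.83 and 7.61 RPKM at 4 h (-1.70 ± 0.44, adjusted p = 0.011) and at 3.52, 1.69, 1.69, 0 and 2.30 RPKM at 18 h (-2.54 ± 0.47, adjusted p = 0.00077), where all 5 lay below all naive retinas, as for 1.3% of all genes. In the model of untransformed RPKM, Ccng2 was not called at 4 h either (adjusted p = 0.14), and at 18 h the adjusted p was 0.27 for Cdkn1a, 0.91 for Gadd45b and 0.095 for Ccng2. Markers of other cells differed at 4 h too. The microglial markers summed to between 2180 and 6820 RPKM at 4 h, and replicate 5, with the highest Cdkn1a (326 RPKM) and Gadd45b (490 RPKM), had 312 RPKM of the 2 erythrocyte markers against at most 14 RPKM in the other five. Without replicate 5 the log2 fold changes at 4 h were 4.38 (limma adjusted p = 2.9e-05) and 7.07 (adjusted p = 2.6e-10). At 2 weeks Cdkn1a, Gadd45b and Ccng2 had log2 differences of -0.55, 0.56 and 0.04 from naive, each with an adjusted p of 1.

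Of the 14 tested genes among the G1 cyclins, CDKs and RB-E2F genes, 3 were called at 4 h and 0 at 18 h by limma, where 5 had an unadjusted p under 0.05 and the model of untransformed RPKM called 0. Ccnd2, cyclin D2, was between 1.02 and 12.9 RPKM at 4 h and at most 0.363 RPKM in naive retinas (2.08 ± 0.30, SE, adjusted p = 7.3e-06), and it passed the filter only with the 4 h retinas. Its highest value was in the same replicate 5, without which the log2 fold change was 1.77 (adjusted p = 2.9e-05). Its kinase partner Cdk6 was between 2.79 and 6.34 RPKM against 0.856 to 2.70 RPKM (1.03 ± 0.27, adjusted p = 0.011), a difference that was short of the required fold without replicate 1, 3 or 5 at 4 h or naive replicate 1, 3, 7 or 8 (0.94 to 1.00). In the first experiment alone the Cdk6 difference was 1.04 (limma adjusted p = 0.33) and was not called. Rb1, the retinoblastoma protein that holds E2F factors in check, fell to between 0.687 and 6.01 RPKM from 2.80 to 12.3 RPKM (-1.24 ± 0.34, adjusted p = 0.015), a call that was lost without replicate 2 (adjusted p = 0.062) or replicate 3 (adjusted p = 0.07) at 4 h. The Rb1 call was also lost in the first experiment alone (limma adjusted p = 0.14), with only the 2 groups compared (0.069) and with a replicate block (0.16). Ccnd2, Cdk6 and Rb1 all differed between 18 h and 4 h in the opposite direction, and at 18 h Rb1 was between 8.15 and 13.3 RPKM.

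Among the 34 tested genes of the replication machinery, 0 were called at 4 h by limma (3 at an unadjusted p under 0.05, 1 by the model of untransformed RPKM) and 2 were higher at 18 h. Pole2, a subunit of the leading-strand DNA polymerase epsilon, was at 6.29, 6.16, 4.32, 26.7 and 6.00 RPKM in replicates 1 to 5 and at most 2.21 RPKM in naive retinas, with no overlap (2.37 ± 0.40, SE, n = 5 and 10, adjusted p = 0.00025). It was therefore high in each of the 5 retinas at 18 h, as Prim1 was. It remained called without replicates 2 and 3. Chaf1b, of the complex that packs new DNA into chromatin, was at 1.57, 3.65, 1.41, 0.0176 and 1.68 RPKM and at most 0.281 RPKM in naive retinas (1.19 ± 0.27, adjusted p = 0.0064), but it passed the filter only with the 18 h retinas, and without replicate 2 the difference was 0.95 (adjusted p = 0.049), short of the required fold.

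Of the 28 tested mitosis and cytokinesis genes, 2 were higher at each of 4 h and 18 h. Kif2c, a microtubule-depolymerising kinesin, was between 1.85 and 7.25 RPKM at 4 h (1.71 ± 0.32, SE, adjusted p = 0.0004) and at 4.67, 1.45, 4.99, 0.0202 and 3.03 RPKM at 18 h (1.48 ± 0.34, adjusted p = 0.0072), against at most 1.89 RPKM in naive retinas. Lmnb1, the nuclear lamina protein lamin B1, was between 0.234 and 16.7 RPKM at 4 h (1.86 ± 0.39, adjusted p = 0.0017) and passed the filter only with these retinas. Ncaph, a condensin subunit, was at 2.49, 3.19, 2.42, 6.01 and 2.32 RPKM at 18 h and at most 1.88 RPKM in naive retinas (1.27 ± 0.32, adjusted p = 0.016); without replicate 4 the difference was 1.07 (adjusted p = 0.061), without the 4 retinas with under 7500 genes it was 0.98 (adjusted p = 0.07), and in both cases the call was lost. Of the 5 tested damage checkpoint and repair genes, 1 was called at 4 h: Atm, the kinase that senses double-strand breaks, was lower (0.168 to 1.41 RPKM against 0.673 to 4.93 RPKM, -1.07 ± 0.33, adjusted p = 0.039). That call was lost without any 1 of replicates 1, 2, 4, 5 and 6 at 4 h or of naive replicates 3, 5, 6, 8, 9 and 10 (adjusted p from 0.054 to 0.11). None of the 5 was called at 18 h (1 at an unadjusted p under 0.05, 0 by the model of untransformed RPKM).

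**Figure D5:**
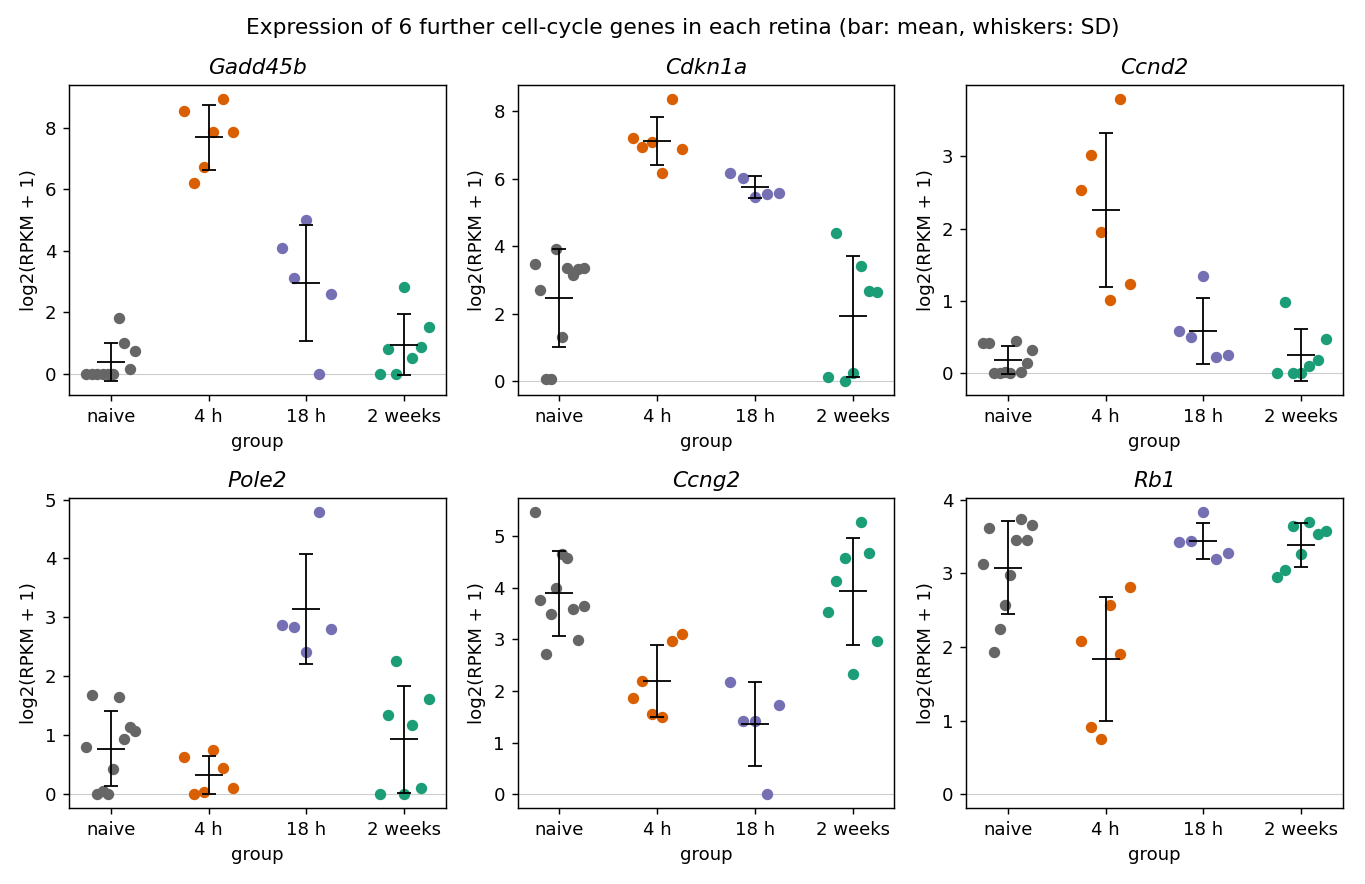
Points are retinas on log2(RPKM + 1), the bar is the group mean and the whiskers are 1 SD. Cdkn1a lies above all naive retinas at 4 h and 18 h, Gadd45b and Ccnd2 do so at 4 h, Pole2 does so at 18 h, and Ccng2 and Rb1 have their lowest group means at 18 h and 4 h.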

How the data were processed

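mRNA-Seq (SMART-Seq v4 cDNA, Nextera XT libraries, single-end reads, no strand kept) of microglia sorted from 28 retinas was used, grouped by the labels. The authors converted the reads with bcl2fastq 2.20, trimmed them, aligned them to mm10 with STAR 2.5.3a, and quantified Ensembl transcripts by expectation-maximisation in Partek, which can divide a read between genes. The deposited values are RPKM, not whole reads, and very small values and exact zeros can come from that estimation. 2 further deposited tables hold the authors' p-values, ratios, fold changes and ANOVA statistics and were not used.

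Values were taken as log2(RPKM + 1), so folds of low genes are understated. limma 3.58.1 in R 4.3.3 (mean-variance trend) was fitted once to all 4 groups over 13164 genes with RPKM of at least 1 in at least 5 retinas, and p-values were adjusted by Benjamini-Hochberg over those genes. The script was tested on simulated data. The 38 genes, the 136 further genes and the markers were chosen with earlier results of these data known. Named were called genes, the most abundant 2 per role, Mki67, Top2a, Cdk1, Pcna, the extremes of each comparison with naive and called further genes; others named at 18 h and 2 weeks were chosen after their values were seen. Coordinates are from GENCODE M21. Alternatives covered pseudocount, filter, scaling, covariates, experiment and single retinas left out.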

Additional observations from a re-analysis of the deposited data

Results flagged for a closer look

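Of 64 groups of retinas tested for the named genes, 8 had 1 value far from the others. The groups are small and many values lie near 0, so the number expected by chance is not known. Among naive retinas, Tyms was at 0.0369 RPKM in replicate 4. At 18 h, Mki67 was at 1.99 RPKM in replicate 2, above the other four, and Hjurp was at 0.782 RPKM in replicate 4, below them. At 2 weeks, replicate 4 was high for Rrm2 (10.3 RPKM), Birc5 (8.64 RPKM) and Ccnb2 (6.77 RPKM), replicate 5 was high for Mki67 (0.487 RPKM) and replicate 1 was low for Pcna (14.3 RPKM).

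The differences from naive at 18 h and at 4 h were themselves different, by the limma test of 18 h against 4 h, for 1 of the 38 genes and for 12 of the 96 further genes tested (7 higher and 5 lower at 18 h), where 5.42% of all genes were called. For Prim1 and the 7 further genes that were also called against naive, the log2 level at 18 h against 4 h was higher for Pole2 (2.81), Prim1 (2.38), Rb1 (1.60) and Ncaph (1.47) and lower for Gadd45b (-4.73), Lmnb1 (-2.06), Ccnd2 (-1.68) and Cdk6 (-1.47). At 4 h and 2 weeks, no interaction between group and experiment passed the adjusted threshold for any of these genes. With few retinas per experiment, that does not show that the experiments were alike. At 18 h the second experiment has 1 retina, so the interaction cannot decide this. For Prim1 at 18 h it was -2.13 on the log2 scale (second against first experiment).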

How the results depend on the processing

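The number of the 38 genes called at 18 h against naive, 3 in the test used, was 0 with a pseudocount of 0.1 or 10, in the second experiment alone and without replicates 2 and 3 at 18 h, and 1 with no filter, in the first experiment alone, with only the 2 groups compared or with each retina rescaled to the same summed RPKM (Cdk1), and 1 with a filter at 5 RPKM (Prim1). Leaving out 1 retina gave 0 to 4, with 0 without replicate 2 at 18 h and 1 (Cdk1) without replicate 1 or 3 at 18 h or naive replicate 3, 4 or 5. At 4 h the count of 0 became 1 in the second experiment alone (Prim1), with rescaling and with the ANOVA (both Hjurp), and stayed 0 with any 1 retina left out. At 2 weeks it was 0 throughout. Between 18 h and 4 h the count of 1 became 0 with a pseudocount of 10, in the first experiment alone and without replicates 2 and 3 at 18 h, 2 with a filter at 5 RPKM, with eye side as covariate and with only the 2 groups compared, and 4 with experiment as covariate, with quantile normalisation and with the ANOVA; leaving out 1 retina gave 1 to 3. The further genes called at 4 h, 9, became 4 with a pseudocount of 10, 5 with a filter at 5 RPKM, and 3 and 19 in the first and second experiment alone (7 to 11 with 1 retina left out), and those at 18 h, 7, became 4, 3, 4 and 0 under the same settings and 3 without replicates 2 and 3 (6 to 9). Without the 4 retinas with under 7500 genes at 1 RPKM the count at 18 h was 2 (Aurka and Ccne1), that between 18 h and 4 h was 4, and the further genes called were 17 at 4 h and 13 at 18 h. Shares of all genes called are not given for these settings, so a changed count need not be particular to the listed genes. The causes were not tested. In the second experiment, 1 retina at 18 h was assumed to vary like the others. Rescaling moved the median of all genes from -0.11 to -0.28 at 4 h and from -0.08 to -0.26 at 18 h. Of 881 alternative values for the genes called, 770 kept their side of the threshold, 111 fell short of it and 0 turned direction. Some settings could hardly move a call, such as leaving out a retina of a group not compared or dropping the fold threshold. Settings in which a gene failed the filter were not counted. Of 45 values for Prim1 at 18 h against naive, 18 fell short.

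The deviations of same-numbered retinas had r from -0.33 to 0.70 (34 pairs, median 0.04), against a median of 0.01 for other pairs. Of the 34 pairs, 15 had r over 0.1, and the best match had the same number in 16 of 68 cases. Whether the numbers pair some of the retinas was not tested. A replicate block gave 2 calls between 18 h and 4 h (Mcm6 and Prim1).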
